A study of Mus musculus with 8 samples.

Results

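A mock RNA immunoprecipitation from mouse testis was compared with the RNA it was made from. The comparison held 4 of the 8 arrays of the study: 2 arrays of a precipitate made with normal mouse IgG and 2 arrays of input total RNA, chosen by their titles. All groups came from testes of male mice at postnatal day 14, of a mixed C57BL/6 129SV strain, whose juvenile testicular germ cells carried the fusion protein Dazl-GFP-V5. The cells from which both the input and the mock precipitate were made thus carried the fusion. The labels do not say what promoter drove it, whether animals were pooled, or whether the 2 replicates of a group came from separate animals, so the p-values below measure the spread between these arrays, which may be technical. The other 4 arrays were precipitates with anti-V5 and with anti-GFP antibodies, and they enter only where stated.

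In RNA immunoprecipitation an antibody on beads pulls a protein out of a cell lysate, and the RNA that comes along is measured. Normal IgG recognises no particular target, so a mock precipitate holds what sticks to beads, tube and immunoglobulin. It serves as the control against which a specific antibody is read. Here the testes were dissociated and lysed without crosslinking, so that complexes had to hold together by themselves, and RNA was extracted with TRIZOL. The juvenile testis at this age holds spermatogonia, the first spermatocytes in meiotic prophase, and the somatic Sertoli, Leydig, peritubular myoid, vascular and immune cells.

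The arrays were 1-colour Agilent whole-genome arrays. A level below is log2 of the processed signal minus the 75th percentile of that array, so a level of 0 is a signal equal to the array's 75th percentile, and a difference of 1 is a change of 2-fold. Levels of different genes are not set against each other, since each probe binds with its own strength. The input and IgG arrays shared a slide, with 59.9% to 62.2% of spots well above background and no saturated spot. Input replicates differed by a median of 0.08 and IgG replicates by 0.16, against a median distance of 0.61 between IgG and input means. Of the defining markers of the germ, Sertoli, Leydig, myoid, leukocyte, endothelial and erythroid lists, those that were tested were well above background on both input arrays. The input thus held RNA of somatic cells too, although the labels name germ cells as the cell type. Scaling matters to every direction below. The arrays' spike-in RNA, as a mean over 10 spike-ins, was 0.69 higher relative to the 75th percentile in the IgG arrays. The 8 spike-ins with a mean level above -5 on all 4 arrays were 0.44 to 0.91 higher. Setting the arrays on the mean would lower every difference by 0.69, taking the median over all genes from 0.21 to -0.48. Another background correction, normexp, starts from the raw spot and local background signals and adds an offset of 50. With it, 303 of the 4857 genes called at least 2-fold higher or lower changed sign.

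Most transcripts had another level in the mock precipitate than in the input. Among 17410 genes tested, 12840 (73.8%) differed between IgG and input at an adjusted p under 0.05 (limma, Benjamini-Hochberg adjustment over all genes). Of these, 7660 (44% of those tested) were higher with IgG and 5180 (29.8%) were lower. Differences of at least 2-fold were called for 2639 genes (15.2%) in the higher and 2218 (12.7%) in the lower direction. The tail was longer on the side of loss: 606 genes were at least 4-fold lower and 110 at least 4-fold higher. The 1st percentile of all differences was -2.999 and the 99th was 1.87. Against the spike-in RNA the split was 2495 higher and 9615 lower. Most transcripts with a large difference were farther from input in IgG replicate 2 than in replicate 1, namely 83.6% of the genes called at least 2-fold higher and 79.4% of those called at least 2-fold lower.

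**Figure D1:**
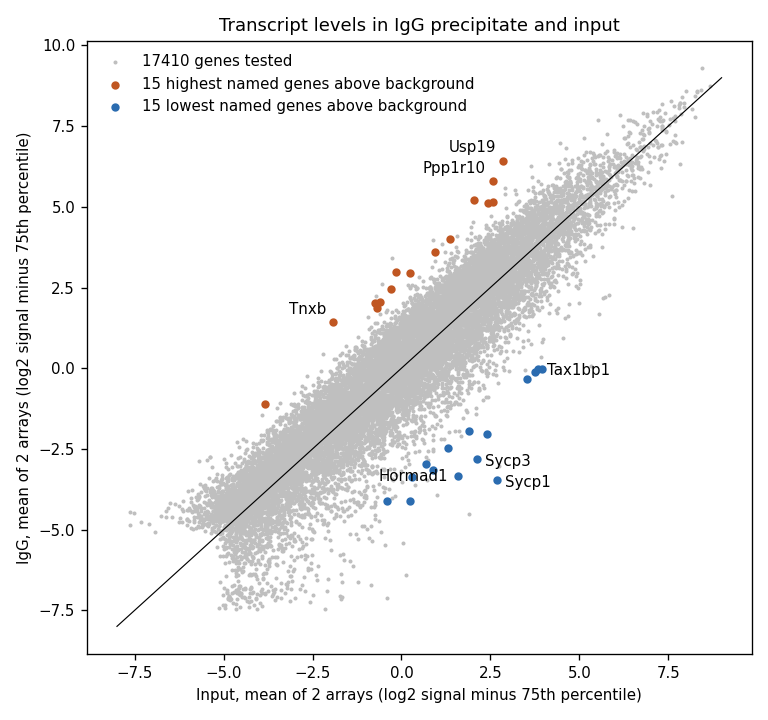
Level of each of 17410 genes in the IgG precipitate (vertical axis, mean of 2 arrays) against its level in the input (horizontal axis, mean of 2 arrays), both as log2 signal minus the array's 75th percentile, with the line of equal levels. Among genes well above background on all 4 arrays that have a symbol and no clone, Riken or predicted annotation, the 15 highest (orange) lie 2.54 to 3.58 above the line and the 15 lowest (blue) lie 3.65 to 6.15 below it; dimmer genes and those without such a symbol lie among and beyond them.

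The transcripts that gained most with IgG were taken among genes well above background on all 4 arrays with a symbol and no clone, Riken or predicted annotation, called named genes below, and were of mixed function. The 15 highest of them were 5.83-fold to 11.99-fold higher, with adjusted p of at most 1.97e-05. Usp19, a deubiquitinating enzyme, stood at 2.78 and 2.91 in the input arrays and at 6.34 and 6.51 in the IgG arrays, a difference of 3.58 (SE 0.09, adjusted p = 4.95e-06 by limma). Its 2 probes gave 3.33 and 3.58. Both IgG arrays lay far above both input arrays. Tnxb, which codes for the matrix glycoprotein tenascin X, was at -1.89 and -1.95 in input and 1.2 and 1.64 with IgG, although its other probe gave a smaller difference of 1.42. Ppp1r10, a nuclear regulatory subunit of protein phosphatase 1, moved from 2.55 and 2.57 to 5.68 and 5.92. Its 3 probes ranged from 1.51 to 3.24. The collagen gene Col6a3 (3.07) and, on the lower side, the mRNA export gene Thoc2 (-3.75, a call lost with normexp) lay as far out but are annotated on the array as predicted, and they are given here after their values were seen.

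2 aminoacyl-tRNA synthetases, the enzymes that charge tRNAs with amino acids, were among these 15. The probe listed as Vars2, whose accession RefSeq gives to the valyl-tRNA synthetase Vars, was at 2.01 and 2.04 in input and 5.1 and 5.32 with IgG. Mars, the methionyl-tRNA synthetase, was at 2.43 and 2.43 in input and 5.0 and 5.22 with IgG. Cdc42bpb, a kinase that acts on myosin, was at -0.13 and -0.16 in input and at 2.86 and 3.1 with IgG. The group also held 3 genes of the cell surface and matrix. Aebp1, a secreted collagen-binding protein, was 6.73-fold higher. The proteoglycan Cspg4 was 6.71-fold higher. Col7a1, the collagen of anchoring fibrils, was 5.83-fold higher. Tln1 (talin, which ties integrins to actin) was at 1.33 and 1.38 in input and at 4.0 and 4.01 with IgG, where the replicates were nearly equal. Dnmt1, the maintenance DNA methyltransferase, was at 2.51 and 2.62 in input and 4.98 and 5.35 with IgG. The remaining 4 were the microtubule-associated Mtap1a (2.72), the glucose transporter Slc2a8 (2.7), the probe named Kifc1 (2.66), whose accession belongs to the kinesin copy Kifc5b so that the 2 genes cannot be told apart, and the probe named Zfp469 (2.66), whose accession RefSeq gives to Tnrc18.

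Some transcripts were well above background only with IgG. There were 196 genes above background on both IgG arrays and no input array, and their gain can be given only as a lower bound. The bound takes the dim group at the weakest signal that counted as well above background, or at its own signal where that was brighter. Every bound in this text holds for the processed signals alone, and another background correction can give a smaller difference. Slc17a7, a vesicular glutamate transporter, was at least 5.93-fold higher, with IgG arrays at -2.91 and -2.61. Papln, a matrix protein, was at least 5.60-fold higher. Alpk3, Mtag2 and Fibcd1 were at least 3.71-fold, 3.33-fold and 3.33-fold higher. Rnf148 had a bound of 5.69-fold, but its IgG arrays stood at -1.63 and -4.05 and so lay far apart. All 6 of these genes were dim on the arrays where they were seen, and with normexp Slc17a7 alone of them was still called. The normexp differences of the others ran from 1.17 (Mtag2) to 1.73 (Rnf148), each below its bound.

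Among named genes well above background on all 4 arrays, the 3 lowest all coded for proteins that organise chromosomes in meiosis. Sycp1, which codes for the filament that zips homologous chromosomes together, stood at 2.74 and 2.64 in input and at -3.18 and -3.75 with IgG, a drop of 71.1-fold (difference -6.15, SE 0.19, adjusted p = 5.39e-06 by limma). Sycp3, a component of the chromosome axis, was at 2.06 and 2.16 in input and at -2.51 and -3.13 with IgG. Hormad1, another axis protein, was at 1.54 and 1.65 in input and -2.93 and -3.72 with IgG. Its other probe gave a difference of -3.58. For all 3 genes IgG replicate 2 was the lower of the pair, and no IgG array came within 4 units of an input array.

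The other genes among the 15 lowest were 12.5-fold to 21.8-fold lower and were of mixed function. Ccar1, a transcriptional coactivator, was at 2.46 and 2.33 in input and -1.76 and -2.35 with IgG, with its 3 probes between -4.45 and -2.45. Glmn, which regulates a ubiquitin ligase, was at 0.28 and 0.22 in input and -3.77 and -4.44 with IgG. Smarca5, the motor of ISWI chromatin remodellers, was at 0.94 and 0.85 in input and -2.98 and -3.31 with IgG, and its 4 probes gave differences from -4.15 to -2.5. Tax1bp1, an autophagy receptor, was at 3.86 and 3.84 in input and 0.08 and -0.12 with IgG. In all of them IgG replicate 2 was the lower of the pair. Rbmy1a1, a Y-linked germ cell RNA-binding protein with several near-identical copies, was at 3.75 and 3.75 in input and 0.03 and -0.29 with IgG. Matr3, a nuclear matrix protein that binds RNA, was at 0.81 and 0.56 in input and -2.55 and -3.4 with IgG, and its other probe gave a difference of -2.03. The elongation and splicing factor Htatsf1 was at 3.65 and 3.42 in input and 0.01 and -0.65 with IgG. Nsbp1 (Hmgn5), a nucleosome-binding protein, differed by -3.86, Ccdc104 (Cfap36) by -3.97, and Sdccag10 by -3.65. Rasa1, an inhibitor of Ras signalling, differed by -3.71. Ogn, a small proteoglycan of connective tissue, differed by -3.75, opposite to the matrix genes Tnxb and Col7a1. Over all 30 genes named so far in either direction for size, the 16 with more than 1 probe had all their probes on the same side of 0. Among all genes with more than 1 kept probe this held for 4599 of 5870. The 30 were picked for large differences, which favours such agreement.

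**Figure D2:**
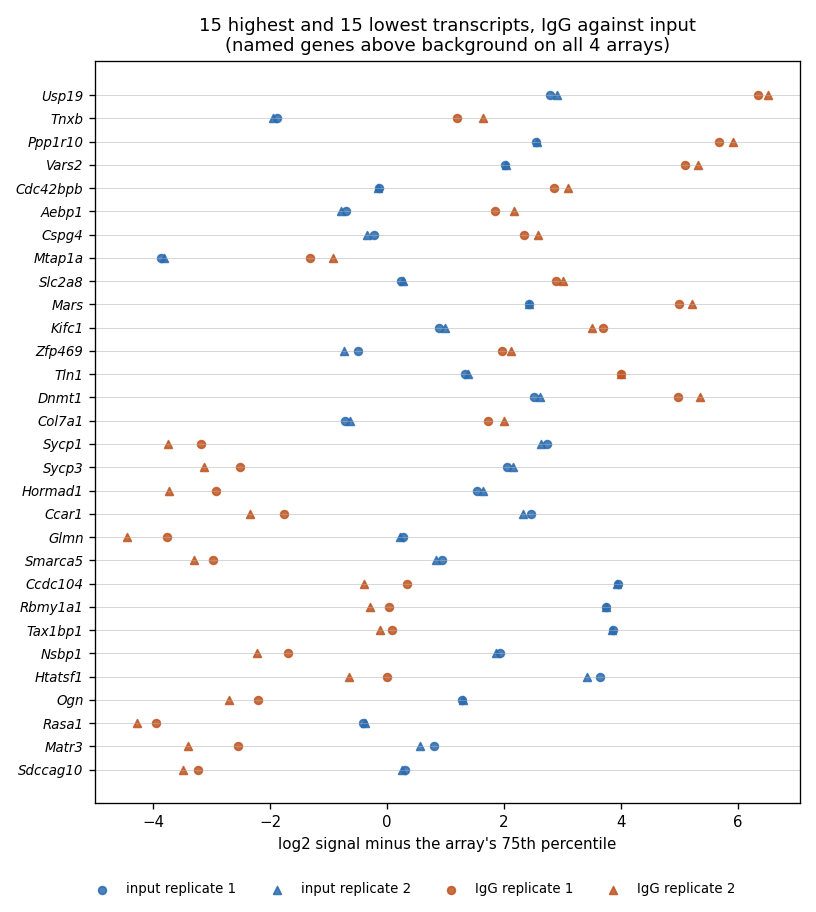
Levels of the 15 highest and 15 lowest transcripts, among named genes well above background on all 4 arrays, on each input (blue) and IgG (orange) array, as log2 signal minus the array's 75th percentile; circles are replicate 1 and triangles replicate 2. Input replicates nearly coincide. IgG replicate 2 lies above replicate 1 in 14 of the 15 highest and below it in all 15 lowest. The rule by which these genes were chosen required that IgG and input arrays do not overlap.

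On the lower side 461 genes were above background on both input arrays and on neither IgG array. Ift74, a carrier protein of ciliary transport, stood at 0.19 and 0.08 in input and was at least 38.9-fold lower. Kntc2, the array's name for the kinetochore protein Ndc80, was at 0.07 and 0.02 in input and at least 36.6-fold lower. The zinc finger genes Zfp97 and Zfp51 were at least 19.99-fold and 13.6-fold lower, and Ccdc66, a centrosomal protein, at least 13.7-fold. With normexp Ift74 alone of these 5 genes was still called. The normexp differences were -2.57 for Kntc2, -1.88 for Zfp97, -1.41 for Zfp51 and -1.35 for Ccdc66, each smaller in size than its bound.

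Families were then described by how many of their tested members were called in each direction and by the median difference, to be read against 44% higher, 29.8% lower and a median of 0.21 over all genes. Where a family had more genes on the array than were tested, the number on the array is given in brackets. A gene could enter through 1 group alone, and its direction is then partly set by the filter. Above background on all 4 arrays were 37 of 44 potassium channel, 16 of 19 Hox, 24 of 29 forkhead and 38 of 41 interleukin genes. Over all genes this held for 16262 of 17410. Collagens, the fibrous and network-forming proteins of the matrix, had the highest median of the families with at least 8 tested members. Of 35 (42 on the array) tested collagen genes, 30 were higher with IgG and 0 were lower, with a median of 1.1, and 20 were at least 2-fold higher. The fibrillar collagen genes Col3a1 and Col1a1, typical of connective tissue, showed this with tight replicates. Col3a1 was at 3.65 and 3.66 in input and 5.93 and 5.91 with IgG. Col1a1 was at 3.22 and 3.22 in input and 5.4 and 5.39 with IgG (difference 2.18, SE 0.06, adjusted p = 5.17e-06). Col5a2, a minor fibrillar collagen, was at -2.95 and -2.85 in input and -1.26 and -1.22 with IgG. With spike-in scaling the collagen median stayed above 0, with 19 genes higher and 5 lower.

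Wnt ligands and frizzled receptors, which carry developmental signals between cells, formed the next family. Of 23 (29 on the array) tested, 20 were higher and 0 lower, with a median of 0.95. Wnt9a was at -2.14 and -2.17 in input and -0.62 and -0.6 with IgG, Wnt3 at -2.33 and -2.37 in input and -0.69 and -0.47 with IgG, and the receptor gene Fzd9 at 1.5 and 1.47 in input and 2.55 and 2.73 with IgG. Histocompatibility genes (H2), which present peptides to T cells, had 20 of 23 (37 on the array) higher and 1 lower, with a median of 0.79. H2-K1, a classical class I gene, was at 5.03 and 5.01 in input and 5.96 and 6.16 with IgG, and H2-DMa, which loads class II molecules, at -1.35 and -1.36 in input and -0.57 and -0.45 with IgG, a call lost with spike-in scaling. Both medians stayed above 0 with spike-in scaling, where 10 Wnt and frizzled genes were higher and 4 lower, and 4 H2 genes were higher and 3 lower. The H2 median was then only 0.09. Single spike-ins shifted by up to 0.91, more than the H2 median of 0.79, so its sign depends on the spike-ins used. Many H2 genes are close copies of each other, so that probes of this family may share transcripts.

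Families of membrane proteins differed among themselves, and those with the larger medians come first. Of 284 (371 on the array) solute carriers, which move small molecules across membranes, 177 were higher and 35 lower (median 0.55). Slc2a6, a glucose transporter, was at -2.67 and -2.64 in input and -0.31 and -0.15 with IgG. Slc37a4, which brings glucose 6-phosphate into the endoplasmic reticulum, was at 0.41 and 0.41 in input and 1.89 and 1.9 with IgG, and Slc35b2, a Golgi transporter of the sulfate donor PAPS, at 3.87 and 3.87 in input and 5.4 and 5.47 with IgG. The gain of Slc2a6 was the largest of the 3. The Tmem genes, a naming class of membrane proteins, had 127 of 200 (234 on the array) higher and 34 lower (median 0.54), with Tmem121 at 0.31 and 0.29 in input and 2.52 and 2.63 with IgG. Potassium channel genes (Kcn) had 30 of 44 (85 on the array) higher and 6 lower (median 0.65). By its name the antisense RNA Kcnq1ot1 (-2.49), which is no channel gene, was counted among the 44 and among the 6 lower. Kcnj4, an inward rectifier, differed by 2.18 and Kcnmb4, an accessory subunit, by 1.6. Interleukins and their receptors had 24 of 41 (84 on the array) higher and 4 lower (median 0.57), and claudins, the proteins of tight junctions, 10 of 12 (22 on the array) higher and 1 lower (median 0.52). The claudin Cldn11, the main claudin of the Sertoli cell barrier, was at 3.06 and 3.15 in input and 3.94 and 3.97 with IgG, a call lost with spike-in scaling. With spike-in scaling the medians of these 5 families fall below 0, so that they are gains only relative to the other genes. Genes named Gpr, for G protein-coupled receptors, had 28 of 51 (102 on the array) higher and 8 lower (median 0.44). Vomeronasal receptors had 5 of 16 (126 on the array) higher and 1 lower (median 0.39). The membrane protein families that follow lay near or below the median of all genes. Integrins, the receptors for matrix, had 11 of 24 (33 on the array) higher and 7 lower (median 0.24). ATP-binding cassette transporters had 16 of 37 (49 on the array) higher and 16 lower (median 0.13). Genes named as Cd antigens had 21 of 60 (87 on the array) higher and 18 lower (median 0.08), and the adhesive cadherins and protocadherins 13 of 33 (67 on the array) higher and 6 lower (median -0.003). Membrane proteins as a class were not tested.

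Immediate early, Hox and forkhead genes also had medians above that of all genes. Of 27 (28 on the array) immediate early genes, which are switched on within minutes of a stimulus, 18 were higher, 1 was lower and 8 were not called (median 0.65). Socs3, a feedback inhibitor of cytokine signalling, was at -0.54 and -0.53 in input and 1.02 and 1.17 with IgG. Ier5 was at 2.33 and 2.28 in input and 3.91 and 3.93 with IgG. The AP-1 subunit gene listed as Jund1 was at 4.73 and 4.78 in input and 6.03 and 6.26 with IgG, and the growth arrest gene Gadd45b at 0.77 and 0.62 in input and 2.17 and 2.13 with IgG. All 4 were more than 2-fold higher. Homeobox Hox genes, which pattern the body axis, had 13 of 19 (38 on the array) higher and 1 lower (median 0.57), with Hoxb2 at -3.49 and -3.62 in input and -2.02 and -1.99 with IgG, and Hoxd10 as the member called lower (-0.93), a call lost with normexp. Forkhead genes had 18 of 29 (42 on the array) higher and 2 lower (median 0.45), among them Foxj1, the regulator of motile cilia (1.86). These 3 medians also fall below 0 with spike-in scaling. Sox genes, another family of transcription factors, had 8 of 18 (20 on the array) higher and 2 lower (median 0.31). Olfactory receptor genes shifted by their median (0.37) but most were dim: 176 of 909 on the array were tested, 38 were higher, 4 were lower and 134 were not called.

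**Figure D3:**
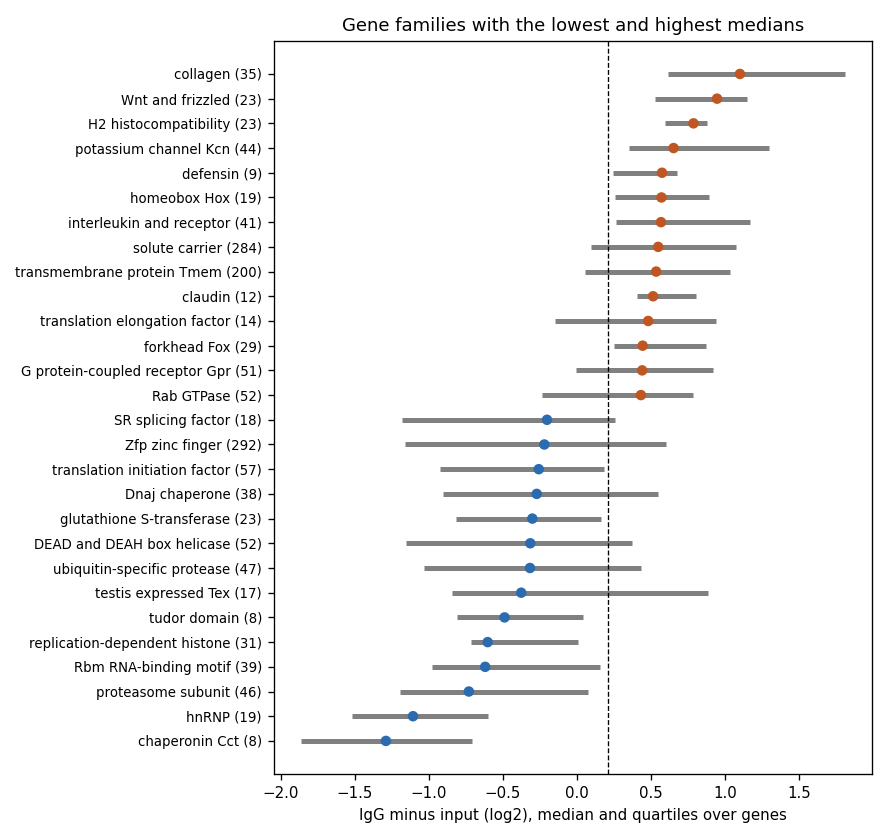
Median difference between IgG and input (dot, log2) and the quartiles over genes (bar) for the 14 families with the lowest and the 14 with the highest medians among those with at least 8 tested members, with the number tested in brackets; the dashed line is the median over all genes, 0.21. Collagens, Wnt and frizzled, and H2 genes lie farthest to the right and chaperonin Cct, hnRNP and proteasome genes farthest to the left. Scaling to the mean of the spike-in RNA would move all dots and the line 0.69 to the left. Only the top 3 would stay above 0, with H2 at 0.09.

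The families with the lowest medians code for protein folding, protein breakdown and RNA-binding machinery, although not every family of these kinds was low. All 8 (9 on the array) tested subunits of the chaperonin Cct, the ring that folds actin and tubulin, were lower with IgG, with a median of -1.29. Cct4 was at 4.87 and 4.96 in input and 2.65 and 2.46 with IgG. Cct6a was at 1.0 and 0.92 in input and -1.35 and -1.59 with IgG. Cct8 (-1.57) and Cct3 (-1.7) fell less. Among 21 (22 on the array) heat shock and chaperone genes, 13 were lower and 2 higher (median -0.97). Dnaja1, a co-chaperone of Hsp70, was at 4.57 and 4.62 in input and 1.61 and 1.53 with IgG. Hspa4l, an Hsp110 protein abundant in germ cells, was at 4.12 and 4.18 in input and 1.77 and 1.66 with IgG, its relative Hspa4 at 2.9 and 2.81 in input and 0.2 and -0.11 with IgG, and the mitochondrial chaperonin Hspd1 at 4.89 and 4.85 in input and 3.08 and 3.08 with IgG. In all of them the brightest probe was more than 3-fold lower with IgG, although probes of Hspa4l and Hspa4 ranged up to -1.09 and -1.13. Genes named Dnaj were mixed as a family, with 20 of 38 (43 on the array) lower and 16 higher (median -0.27), and Dnaja1 was the lowest of them.

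Proteasome subunits, which form the main protease of the cell, had 28 of 46 lower and 10 higher (median -0.73). The core subunit gene Psma6 was at 5.15 and 5.16 in input and 3.34 and 3.27 with IgG, and the regulatory subunit gene Psmd12 at 4.89 and 4.94 in input and 2.89 and 2.84 with IgG. Psmc2, an ATPase of the cap, differed by -1.55, but its other probe gave 0.25. Ubiquitin-conjugating enzymes were not low, with 15 of 32 higher and 11 lower (median 0.07). The hnRNPs, abundant nuclear proteins that package pre-mRNA, had 16 of 19 (30 on the array) lower and 3 higher (median -1.11). Hnrpa3 was at 6.53 and 6.49 in input and 4.4 and 4.29 with IgG, Hnrpc at 2.85 and 2.91 in input and 1.21 and 1.22 with IgG, and Hnrpu at 5.95 and 6.0 in input and 4.42 and 4.52 with IgG. Genes named Rbm for an RNA-binding motif had 27 of 39 (44 on the array) lower and 8 higher (median -0.62), among them Rbm34 at 2.17 and 2.17 in input and -0.63 and -0.72 with IgG. Poly(A)-binding and tail-associated proteins had 13 of 22 (23 on the array) lower and 4 higher (median -0.53). Paip2, an inhibitor of the poly(A)-binding protein, was at 5.25 and 5.36 in input and 3.83 and 3.68 with IgG. Cpeb1, which controls tail length in germ cells, was higher (0.92), a call lost with spike-in scaling.

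Translation factors were found on both sides. Initiation factors had 29 of 57 (65 on the array) lower and 13 higher (median -0.26). Eif2s2, a subunit of the factor that brings the initiator tRNA, was at 4.5 and 4.57 in input and 1.04 and 0.82 with IgG. That is 12.2-fold lower by its brightest probe, while its other probe gave a difference of -1.78. Eif2a was at 0.42 and 0.57 in input and -2.46 and -2.65 with IgG. Elongation factors had 8 of 14 (15 on the array) higher and 3 lower. Eef1g, part of the complex that recharges the elongation factor, was at 6.28 and 6.48 in input and 7.7 and 7.7 with IgG, whereas the elongation factor Eef1a1 itself was slightly lower (-0.53), a call lost with normexp. Of 35 aminoacyl-tRNA synthetases, 15 were higher and 11 lower (median 0.17), close to the shares over all genes: beside Vars and Mars, the glutaminyl enzyme Qars was higher (1.87) and the isoleucyl enzyme Iars lower (-1.4). Cytosolic ribosomal proteins had a median of 0.09, which lay 0.12 below the all-gene median in this scaling and 0.40 below it with normexp, and 43 of 82 were not called. Rpl4 (-1.89) and Rpsa (1.08) marked the extremes among those with the smallest p. Mitochondrial ribosomal proteins had 18 higher and 28 lower of 78 (median -0.04).

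Other large families also had members at both ends. Of 292 (343 on the array) zinc finger genes named Zfp, 135 were lower and 104 higher (median -0.22), and 250 of the 292 were above background on all 4 arrays. Zfp68 was at 2.24 and 2.37 in input and -0.47 and -0.59 with IgG, and Zfp277 at 0.95 and 0.95 in input and -1.5 and -1.47 with IgG. The DEAD and DEAH box helicases, which unwind RNA, had 27 of 52 lower and 17 higher, from Ddx52 (-3.52, a call lost with normexp) and Ddx1 (-1.98) to Ddx24 (1.62). The ubiquitin-specific proteases held Usp19, the highest named gene above background on all 4 arrays, and strongly lost ones. Of 47 (54 on the array), 25 were lower and 15 higher. Usp9x was at 0.18 and 0.24 in input and -2.88 and -3.06 with IgG, and Usp15 at 1.57 and 1.69 in input and -1.79 and -2.07 with IgG, although the 5 probes of Usp15 ranged from -3.74 to -0.21. The replication-dependent histones, whose messages end in a stem-loop in place of a poly(A) tail, had 20 of 31 (38 on the array) lower and 5 higher (median -0.6). Hist1h2ak was at 4.56 and 4.73 in input and 3.4 and 3.38 with IgG. These genes are near-identical copies whose probes may share transcripts.

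A list of matrix genes outside the collagens did not follow them. Of its 31 (32 on the array) genes of other matrix proteins and their regulators, 13 were higher and 14 lower (median -0.21). The list does not hold Tnxb, Aebp1 and Papln, which were given above as gains. Lama2, a laminin chain of basement membranes, was at 2.04 and 1.98 in input and 4.43 and 4.66 with IgG, 5.78-fold higher. Sparcl1, a secreted glycoprotein, was at 4.61 and 4.49 in input and 2.88 and 2.83 with IgG, and Efemp1, a fibulin, at 0.43 and 0.38 in input and -1.37 and -1.57 with IgG. A secreted product was thus found on either side.

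Some short structural RNAs were higher with IgG, and they were picked after their values were seen. Rmrp, the RNA of the RNase MRP enzyme, was at 0.15 and 0.19 in input and 3.01 and 2.12 with IgG. The small nucleolar RNA Rnu33, of a class that guides modification of ribosomal RNA, was at -3.42 and -3.39 in input and -1.05 and -1.08 with IgG. Rnu35b, of the same class, was at -2.74 and -2.71 in input and -0.63 and -0.61 with IgG. Snora69, not well above background in input, was at least 2.61-fold higher, a call lost with normexp. Many small nucleolar RNAs lie in introns of host genes, and unspliced host transcripts cannot be told apart from them here. Among long noncoding RNAs, the imprinted H19 was at -0.3 and -0.22 in input and 0.73 and 0.76 with IgG, which was not called with spike-in scaling. The nuclear RNA Malat1 was at 1.19 and 1.09 in input and -0.24 and -0.82 with IgG, with its 4 probes between -3.82 and -0.85. Kcnq1ot1, a nuclear antisense RNA that silences its imprinted neighbours, was at least 2.43-fold lower. With normexp background correction, however, its difference was 0.13 and not called.

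The germ cell lists had medians from 0.29 for spermatogonia to -0.55 for meiotic prophase. The lists are named for cell types, but the values are RNA levels in a precipitate and in input, and no cells were counted. Of 20 (22 on the array) spermatogonial markers, 10 were higher and 3 lower (median 0.29). Egr4 was at 2.03 and 2.05 in input and 3.12 and 3.26 with IgG, and Stra8, which is switched on by retinoic acid before meiosis, fell from 6.26 and 6.24 to 5.18 and 5.17. Of 30 meiotic prophase genes, 6 were higher, 19 lower and 5 not called (median -0.55), with 11 at least 2-fold lower. Beside Sycp1, Sycp3 and Hormad1, Tex15, needed for repair of meiotic breaks, was at 1.28 and 1.33 in input and -1.05 and -1.3 with IgG. Genes of the same prophase stood at the other end, and they were picked for contrast after their values were seen. Msh5, a mismatch repair protein of crossovers, was at -1.04 and -1.06 in input and 0.02 and 0.27 with IgG, while its partner Msh4, a dim gene that was not called with normexp, was at -2.5 and -2.49 in input and -4.17 and -4.43 with IgG. The cohesin subunit listed as Rec8L1 was at 3.8 and 3.81 in input and 4.37 and 4.57 with IgG, a gain that ends when the arrays are scaled to spike-in RNA (-0.030). Spermatid genes had 4 of 23 (29 on the array) higher and 10 lower (median -0.21), among them Crisp2, an acrosome and sperm tail protein, at -1.96 and -1.7 in input and -3.67 and -4.13 with IgG, a call lost with normexp.

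**Figure D4:**
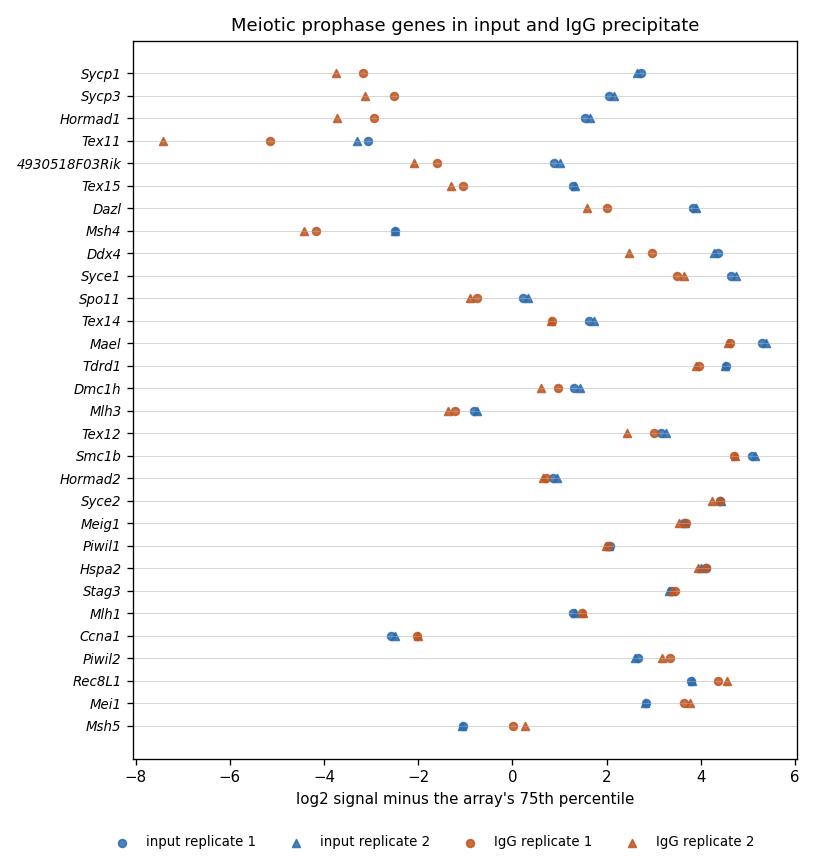
Levels of the 30 meiotic prophase genes on each input (blue) and IgG (orange) array, as log2 signal minus the array's 75th percentile, sorted by difference; circles are replicate 1 and triangles replicate 2. Sycp1 at the top fell by 6.15 and Msh5 at the bottom was 1.2 higher, while genes such as Piwil1 and Hspa2 in the lower part had input and IgG symbols on top of each other.

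Somatic lists showed no common direction. Their levels are also given summed on the linear scale, in units of each array's 75th percentile, where the brightest probes weigh most. In these units 16 markers of peritubular myoid cells gave 253 and 254 in input and 143 and 161 with IgG. Of these, 12 were lower and 1 higher (median -0.58). Acta2, the smooth muscle actin, was at 5.76 and 5.71 in input and 4.15 and 4.49 with IgG, and Tpm2, a tropomyosin, at 3.91 and 3.91 in input and 2.25 and 2.53 with IgG. Sertoli cell markers summed to 733 and 755 in input and 703 and 679 with IgG, with 10 of 25 higher and 9 lower. Rhox5, a homeobox gene of Sertoli cells, was at 5.01 and 5.04 in input and 3.49 and 3.68 with IgG, and Ctsl, a protease they secrete, at 7.36 and 7.41 in input and 6.47 and 6.39 with IgG. The defining Sertoli markers did not share these losses. Amh was higher (0.72), and Sox9 (-0.02), Wt1 (-0.03), Gata4 (-0.08) and Clu (-0.12) were not called. Leydig cell markers summed to 65.0 and 64.7 in input and 93.2 and 96.1 with IgG, with 6 of 14 (15 on the array) higher and 4 lower. Por, the electron donor of steroid-making P450 enzymes, was at 3.31 and 3.25 in input and 4.49 and 4.47 with IgG. Of the defining Leydig markers, Cyp17a1 (0.33) and Insl3 (0.28) were higher, Hsd3b1 (-0.45) was lower and Star (-0.006) was not called. Leukocyte markers had 4 of 21 higher and 11 lower and endothelial markers 10 of 14 higher and 2 lower, with summed levels of 39.9 and 39.7 against 29.0 and 33.2 for leukocytes and of 13.2 and 13.0 against 15.5 and 18.2 for endothelium. Of 5 (8 on the array) erythroid genes tested, 2 were higher and 2 lower. Their median difference was 0.42, whereas the summed level was lower with IgG, at 56.1 and 57.2 against 44.4 and 40.8. Whether the cell type that makes a transcript mattered to its difference was not tested.

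Genes bound up with the antibody or the studied protein were looked at by name. Of 13 (16 on the array) immunoglobulin and Fc receptor genes tested, 2 were higher and 2 lower. Fcgrt, the neonatal Fc receptor, was at 1.18 and 1.13 in input and 2.41 and 2.7 with IgG, and Fcgr2b, the inhibitory Fc receptor, at -1.08 and -1.15 in input and -2.04 and -1.86 with IgG, a call lost with normexp. The transcript of Dazl, which binds mRNAs and promotes their translation in germ cells, was itself lost with IgG, from 3.83 and 3.91 in input to 2.01 and 1.58 (difference -2.08, SE 0.15, adjusted p = 3.24e-05 by limma). Whether the probe reads the fusion transcript, the endogenous one or both is not known. Pabpc1, the cytoplasmic poly(A)-binding protein, was at 7.09 and 7.11 in input and 6.71 and 6.41 with IgG, a difference of -0.54 (adjusted p = 0.00603 by limma). Of 11 transcripts listed as reported targets of Dazl, 8 were lower in the mock precipitate and 2 higher (median -0.57). Tex19, which protects germ cells from retrotransposons, was at 4.13 and 4.12 in input and 5.45 and 5.5 with IgG, and Grsf1, an RNA-binding protein, at 3.1 and 3.2 in input and 1.94 and 1.83 with IgG.

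What precipitates with the specific antibodies held of the same genes was set beside these values. Those arrays lay on another slide, so antibody and slide cannot be told apart, and they share the input arrays with the comparison above. Usp19 was at 6.02 and 5.91 in the V5 arrays and 5.69 and 5.66 in the GFP arrays, against 6.34 and 6.51 with IgG. Sycp1 was at -3.69 and -3.43 in the V5 arrays and -3.78 and -3.78 in the GFP arrays, against -3.18 and -3.75 with IgG. In all 3 precipitates Usp19 lay above the input and Sycp1 below it. Sycp3 was at -1.37 and -1.38 with V5 and -1.01 and -1.32 with GFP, above the IgG arrays by 1.45 (adjusted p = 0.00302 by limma) and 1.66 (adjusted p = 5.84e-04), but still below input. Dazl exceeded IgG by 0.98 with V5 (adjusted p = 0.00382 by limma) and by 1.49 with GFP (adjusted p = 3.41e-04). Such genes would look lost against input and gained against IgG.

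Position and size of the gene went along with the difference. Of the genes tested, 12092 had a RefSeq gene of their own, with a median difference of 0.21. Sorted by the span of the gene on the chromosome into 5 bins of equal size, the median fell from 0.40 for spans up to 6.64 kb to 0.36, 0.21, 0.00 and -0.14 for spans above 58.7 kb. In the bin of shortest genes 54.1% were called higher and 13.97% lower, and in the bin of longest genes 31.9% higher and 44.2% lower. Across genes, which are not independent replicates, Spearman's rho of span and difference was -0.24. The quartiles of the bins overlapped widely, so span separates groups of genes and says little of a single one. The level of the gene in input changed the median less, from 0.29 in the dimmest to 0.07 in the brightest of 5 bins. Genes kept through the IgG arrays alone are dim in input, so the median of the dimmest bin is partly set by the filter. The GC content of the first 50 bases of the gene was weakly related to the difference, with medians from 0.09 to 0.34 over 5 bins.

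Chromosomes of high gene density tended to have higher medians. Median differences were highest on chromosomes 15 (0.44), 17 (0.42), 11 (0.40) and 7 (0.39) and lowest among autosomes on chromosomes 18 (-0.22), 13 (-0.17) and 3 (-0.12). On chromosome 17, 345 of 602 genes were higher and 120 lower, and on chromosome 13, 125 of 431 were higher and 205 lower. Over the 19 autosomes the median rose with the number of coding genes per Mb (Pearson r = 0.75, Spearman rho = 0.80, given as a description since chromosomes share the same arrays). On all 19 autosomes genes shorter than the median span of 20.3 kb had a higher median than longer ones. The X chromosome had a lower median than any autosome, with a median of -0.40 and 246 of its 428 genes lower.

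**Figure D5:**
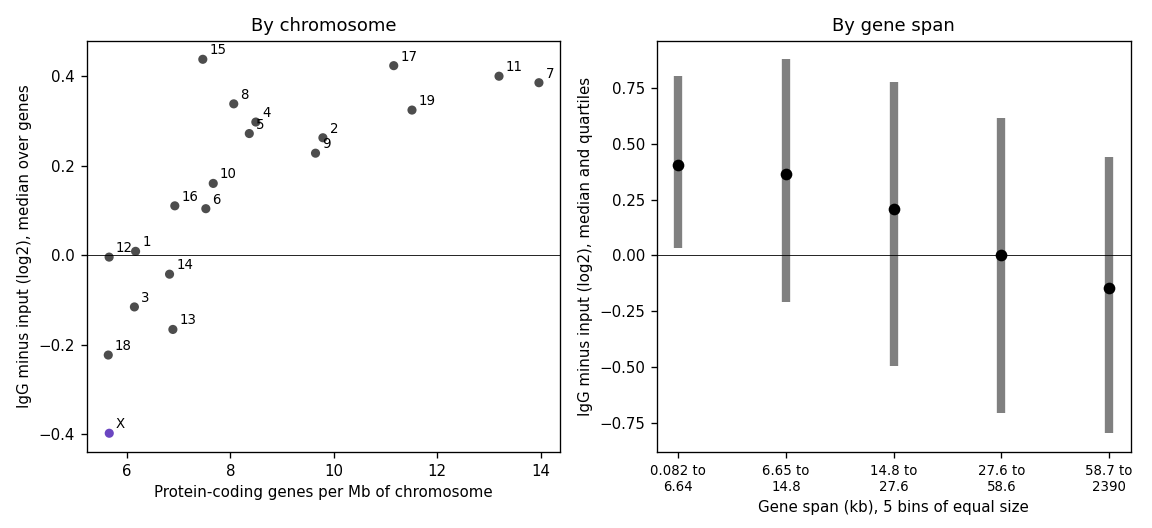
Left, the median difference between IgG and input (log2) of each autosome and of the X chromosome (purple) against its number of protein-coding genes per Mb; the Y chromosome, with 6 genes and a median of -2.53, lies outside the range drawn. Right, the median (dot) and quartiles (bar) of the difference in 5 bins of gene span, falling from 0.40 in the shortest to -0.14 in the longest; scaling to the spike-in RNA would lower all values in both panels by 0.69.

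All 6 tested genes of the Y chromosome were lower with IgG, with a median of -2.53. They are testis-expressed genes or copies of X-linked housekeeping genes, and their comparison with the X copies was chosen after the values were seen. The translation factor gene Eif2s3y was at 1.31 and 1.29 in input and -0.52 and -1.03 with IgG, whereas its X-linked copy Eif2s3x was at 1.23 and 1.3 in input and 1.25 and 1.26 with IgG by its brightest probe and differed by -2.04 by another. The demethylase gene Jarid1d was at -3.08 and -3.02 in input and -4.0 and -3.96 with IgG (with normexp background correction its difference was 0.17 and not called), while its X copy Jarid1c was higher with IgG, at 1.45 and 1.49 in input and 2.33 and 2.69 with IgG, a call lost with spike-in scaling. For the helicase pair both copies fell: Ddx3y differed by -2.18 and Ddx3x by -1.48, with the 3 probes of Ddx3x between -2.81 and -1.48. Ddx3y and Usp9y were not called with normexp. Usp9y was at least 4.85-fold lower and Usp9x 9.05-fold lower. The zinc finger gene Zfy2 was at -0.48 and -0.52 in input and -3.2 and -3.55 with IgG, and Zfx at 0.8 and 0.6 in input and 0.25 and 0.04 with IgG. Rbmy1a1, given above among the lowest genes, was the largest loss of the 6 that could be measured on all 4 arrays. Probes of such pairs can bind both copies in part, and for Eif2s3x and Ddx3x the difference from the Y copy depended on the probe. The size of the differences between copies is thus uncertain.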

How the data were processed

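RNA of 8 samples (4 groups of 2) was hybridised to Agilent 1-colour mouse arrays, per the labels' protocols, and 4 samples, input and IgG, were compared here. Per the file headers, the authors' deposited intensity values are background-subtracted signals written by Agilent Feature Extraction (version 9.1.3.1). Another deposited table holds group means scaled by the authors, and its 9 value columns were not used. Non-control spots were taken, outlier spots were left out, spots of a probe were averaged, and log2 values were centred on each array's 75th percentile. A probe was kept if both input arrays or both IgG arrays showed it well above background (25298 probes), with the brightest for each of 17410 genes. Of these, 16262 genes were above background on all 4 arrays. RefSeq (GRCm38.p6) gave symbols for 12095 genes.

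All 8 arrays were fitted with limma 3.58.1 in R 4.3.3 as 4 group means (4 residual and 2.47 prior degrees of freedom), and p-values were adjusted by Benjamini-Hochberg at 0.05. The replicate numbers are not stated to pair the samples. The description label of input replicate 2 names an immunoprecipitate and that of V5 replicate 1 total RNA, against their titles, and titles were followed. The series text names an anti-PABP1 antibody where the samples name anti-GFP.

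The 23 lists and 58 name families, and the genes named, were chosen with earlier results of these data known. Named genes have a symbol and no clone, Riken or predicted annotation, and were the 15 highest and 15 lowest above background on all 4 arrays, the 6 highest and 6 lowest bounds, up to 4 members of a list with the smallest p, and Dazl and Pabpc1. All had to be called in both the fit of 8 and that of the 4 arrays, without overlap between groups. A gene that this rule names is not reported here. Genes outside this rule were chosen after their values were seen. Alternatives were normexp, spike-in, median and quantile scaling, filters, probe rules, array weights, a replicate block and leaving out arrays. Alternatives for gene spans and chromosomes were not run.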

Additional observations from a re-analysis of the deposited data

How the results depend on the processing

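Background correction and scaling moved the counts most. With normexp on the mean and background signals, 3868 genes were called higher and 2443 lower, and 717 of the 12840 calls changed sign. With scaling to spike-in RNA, 2495 were higher and 9615 lower, and 3227 calls changed sign. The normexp offset of 50 compares with median processed signals of 80.1 to 98.2 on the input and IgG arrays. The cause of the loss of calls with normexp was not tested, and the shift with spike-in scaling follows from its construction. Leaving out each input or IgG array gave 6699 to 7816 genes higher and 4605 to 5125 lower. The array of input replicate 2 and that of V5 replicate 1, whose descriptions disagree with their titles, left 6481 higher and 4333 lower when both were dropped. The other scalings, filters, probe rules, weights and the fit of 4 arrays kept both counts within 1.5 times, and so did a fit with the replicate number as a block, with 7566 higher and 5150 lower. That number was not shown to pair samples, since the difference between replicates in IgG correlated with that in input by 0.08 over genes. Among the genes named, Jarid1d (0.17) and Kcnq1ot1 (0.13) reversed with normexp and Rec8L1 (-0.030) reversed with spike-in scaling. Calls were lost with normexp for Alpk3, Ccdc66, Crisp2, Ddx3y, Ddx52, Eef1a1, Fcgr2b, Fibcd1, Hoxd10, Kntc2, Msh4, Mtag2, Papln, Rec8L1, Rnf148, Snora69, Thoc2, Usp9y, Zfp51 and Zfp97, and with spike-in scaling for Cldn11, Cpeb1, H19, H2-DMa and Jarid1c. Rnf148 also lost its call without input replicate 1 (adjusted p = 0.0543 by limma), and Eif2s3x became called lower with spike-in scaling and with the mean over its probes. With normexp 23 collagen, 9 Wnt and frizzled, 17 H2 and 108 solute carrier genes were still higher, and 8 chaperonin Cct, 14 hnRNP, 27 proteasome and 12 meiotic genes still lower. With spike-in scaling 73 solute carrier genes were higher and 97 lower. Only 2 arrays a group and signal near background limit the precision of dim genes.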
